A study of Mus musculus with 4 samples.

Results

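miR-22 is a microRNA, a small RNA that guides an Argonaute protein to target messages, and it comes from 1 hairpin that gives 2 mature arms. Both arms were chosen by name, as the rows mmu-miR-22 and mmu-miR-22* (miR-22 and miR-22* from here on), which are 2 of the 508 endogenous microRNAs in the count tables. They were followed through 4 small RNA libraries of primary fibroblasts cultured from mouse embryos (MEFs), 1 library per group. All 4 groups carry shLuc.1309, a transgenic shRNA (short hairpin RNA) whose target, luciferase, is not a mouse gene. The groups are shLuc.1309 without and with doxycycline (dox), and shLuc.1309;ROSA-rtTA without and with dox. rtTA is a transactivator that binds dox and then turns on promoters with tetracycline-responsive elements. ROSA stands for Rosa26, a locus expressed in nearly every mouse tissue. The sources used here do not give the dose or time of dox, or the number or age of the embryos.

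A microRNA hairpin is cut out of a longer transcript by Drosha in the nucleus and trimmed by Dicer in the cytoplasm, which leaves a short duplex of both arms. One arm, the guide, is kept by an Argonaute protein and pairs with target messages mainly through its seed, bases 2 to 8, while the other arm, the passenger, is mostly lost. miR-22 is known as an abundant microRNA of heart and skeletal muscle and of fibroblasts. Its known targets include Tet2, an enzyme that oxidises methylated DNA, and it has been linked to senescence in fibroblasts.

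The mature sequences deposited for both arms matched the RefSeq entries of Mir22 (build GRCm38.p6) base for base, and they are shown because the arm named with a star is the one rarely kept. Capitals mark the seed.
miR-22 (guide, 3p arm): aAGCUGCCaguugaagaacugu
miR-22* (passenger, 5p arm): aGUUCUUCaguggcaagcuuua
The guide lies at chr11:75463772-75463793 and the passenger at chr11:75463734-75463755, both on the plus strand. The hairpin that holds them is shown with both arms in capitals, the passenger first.
miR-22 hairpin: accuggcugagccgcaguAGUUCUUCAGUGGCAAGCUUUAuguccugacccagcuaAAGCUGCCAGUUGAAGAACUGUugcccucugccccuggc
This hairpin of 95 bases spans chr11:75463716-75463810. It lies whole within exon 2 of Mir22hg, the non-coding host gene of miR-22, in both Mir22hg transcripts of the GENCODE M21 annotation, so it is exonic and not intronic. Folded with RNAfold, the hairpin had a minimum free energy of -41.9 kcal/mol. In that fold 21 of the 22 bases of each arm were paired, 19 of them with the other arm. Of the first 4 bases of the guide, 2 were in G-C and 2 in A-U pairs, and of the first 4 bases of the passenger, 1 was in a G-C and 3 in A-U pairs.

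No listed microRNA was a close relative of an arm, and none was within 2 edits of either. The nearest listed sequence was 9 edits from miR-22 and 8 edits from miR-22*. No other listed microRNA has the seed of either arm, and 0 of the other mature sequences in the RefSeq table (1738 in all) do.

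The libraries held 6383594 to 8780954 counts, 1 whole number per microRNA. Levels are given as CPM, counts per 1000000 endogenous counts, with the shRNA left out of the total. A microRNA entered the comparisons if its mean CPM was worth 20 counts or more in the shallowest library (3.14 CPM), which 372 of the 508 were, both arms among them. The shRNA took 0.0725% to 0.0786% of all counts in 3 libraries and 2.38% in rtTA cells with dox, where it was 24386 CPM. Of the fibroblast and mesenchymal markers 6 of 7 were listed, with a summed level of 316729 to 334052 CPM. Most of that sum was miR-21 (19.4% to 23.0% of the endogenous counts) and miR-143 (7.83% to 9.49%). Epithelial markers (6 of 6 listed) summed to 4.86 to 17.4 CPM and pluripotent markers (4 of 6) to 0.306 to 0.666 CPM, with 0 of either list past the floor. Each group is 1 library, so every comparison is one of libraries and was not checked against replicates. The 95% intervals are exact (Clopper-Pearson) and cover counting error only, since PCR copies cannot be told from separate molecules when no molecular identifiers are used. In such bulk samples fewer cells of a type and less RNA per cell cannot be told apart.

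The guide, miR-22, was the second most abundant microRNA in all 4 libraries, and its share of the pool was highest where the shRNA was switched on. It had 671193 counts in cells without rtTA and without dox, which is 10.5% of the endogenous counts or 105220 CPM (104982 to 105458). With dox and no rtTA it had 637300 counts, 9.74% or 97446 CPM (97219 to 97674). In rtTA cells without dox it had 946310 counts, 10.8% or 107853 CPM (107648 to 108059). In rtTA cells with dox it had 961964 counts, 12.8% or 128127 CPM (127888 to 128366). The order from low to high was thus no rtTA with dox, no rtTA without dox, rtTA without dox and rtTA with dox. No neighbours in this order overlapped in their counting intervals, but the spread between cultures was not measured.

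**Figure D1:**
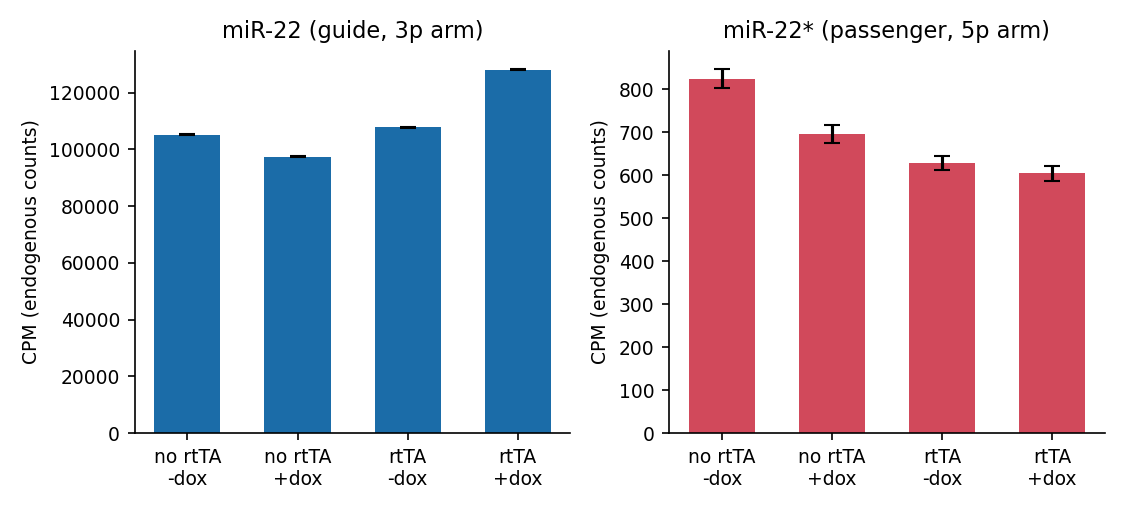
Level of each arm in CPM (endogenous counts, linear axes from 0) in the 4 libraries; error bars are 95% counting intervals of 1 library each. The guide stands highest in rtTA cells with dox at 128127 CPM, and the passenger stands highest in cells without rtTA and without dox at 825 CPM.

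Over the 4 libraries miR-22 varied little for a microRNA. Its highest level was 1.31 times its lowest, against a median of 1.58 times over the 372 microRNAs past the floor. Over the 50 most abundant microRNAs that median was 1.40 times.

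Set against miR-21, the most abundant microRNA of these cells, miR-22 gained ground in rtTA cells. Both libraries without rtTA held 2.19 reads of miR-21 per read of miR-22. The rtTA libraries held 1.92 reads without dox and 1.51 with dox. Without dox the log2 ratio of rtTA to no rtTA was -0.15 for miR-21 and 0.04 for miR-22 by endogenous totals. Scaling by DESeq2 size factors raises both by 0.066 and puts miR-22 at 0.10. How that step divides between miR-21 and miR-22 therefore depends on the scaling. With dox the values were -0.14 for miR-21 and 0.39 for miR-22. miR-143, a microRNA of smooth muscle and fibroblasts that ranked 3 by mean CPM, gave 0.744, 0.960, 0.805 and 0.741 reads per read of miR-22 in the same order of libraries. This ratio was therefore highest with dox in the absence of rtTA and differed least between the first and the last library. Such ratios do not depend on the scaling of a library, although 2 microRNAs can be ligated and amplified with different efficiency.

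The shRNA stayed well below miR-22 even when induced. There were 145, 126 and 137 reads of miR-22 per shRNA read in the uninduced libraries in the same order, and 5.25 in rtTA cells with dox.

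**Figure D2:**
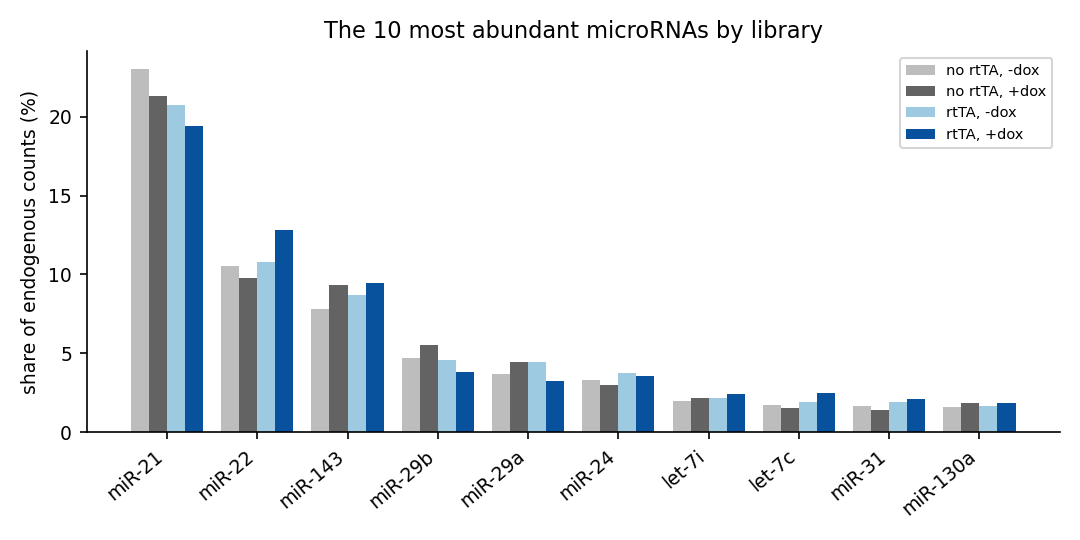
Share of endogenous counts (%) of the 10 most abundant microRNAs, with 1 bar per library. miR-22 holds 12.8% in rtTA cells with dox against 9.74% to 10.8% in the other libraries, while miR-21 is lowest there at 19.4%.

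The passenger, miR-22*, was far below its guide but firmly counted, and it ranked 98 to 117 among the 462 to 477 microRNAs listed per library. It had 5261 counts without rtTA and without dox, 825 CPM (803 to 847). With dox and no rtTA it had 4548 counts, 695 CPM (675 to 716). In rtTA cells it had 5518 counts without dox, 629 CPM (612 to 646), and 4540 counts with dox, 605 CPM (587 to 623). The order from high to low was not that of the guide. The intervals of both rtTA libraries overlapped, and the other neighbours in the order did not overlap by counting error. The highest level of the passenger was 1.36 times the lowest.

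The share of the passenger in the reads of both arms was lower in each step from the first library to the last. It was 0.778% (0.757% to 0.799%) without rtTA and without dox, and 0.709% (0.688% to 0.729%) with dox and no rtTA. It was 0.580% (0.565% to 0.595%) in rtTA cells without dox and 0.470% (0.456% to 0.484%) in rtTA cells with dox. These intervals did not overlap. Put as reads of the guide per read of the passenger, the values were 128, 140, 171 and 212. Both arms are counted in the same library, so this measure does not depend on the scaling of the libraries.

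Among hairpins, miR-22 was toward the one-sided end without being extreme. Of 125 hairpins with both arms listed and 20 or more counts in each library (both arms summed), the rarer arm (the one with fewer counts over all 4 libraries) held a median of 4.68%, 5.30%, 5.13% and 4.44% in the same order. The share in miR-22 ranked 27, 19, 24 and 24 from the lowest. By its mean of 0.634% over the libraries it ranked 21. It stood between miR-130b (0.622%), a relative of the oncogenic miR-130 and miR-301 microRNAs, and miR-20a (0.641%), a member of the cell cycle cluster miR-17~92. Their rarer arms moved otherwise across the libraries. That of miR-130b was at 0.473%, 1.14%, 0.631% and 0.248%, and that of miR-20a at 0.568%, 0.740%, 0.823% and 0.435%.

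Within the 10 most abundant hairpins the passenger of miR-22 had a middling share. Shares were lower for miR-16 (0.0277%), miR-29b (0.0474%), let-7f (0.0559%), let-7i (0.141%) and miR-31 (0.594%), and higher for miR-29a (0.653%), miR-21 (1.02%), miR-199b (1.63%) and miR-125b (5.48%). In miR-21 the star arm had its highest share, 1.46%, in rtTA cells with dox, the library where the share in miR-22 was lowest.

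**Figure D3:**
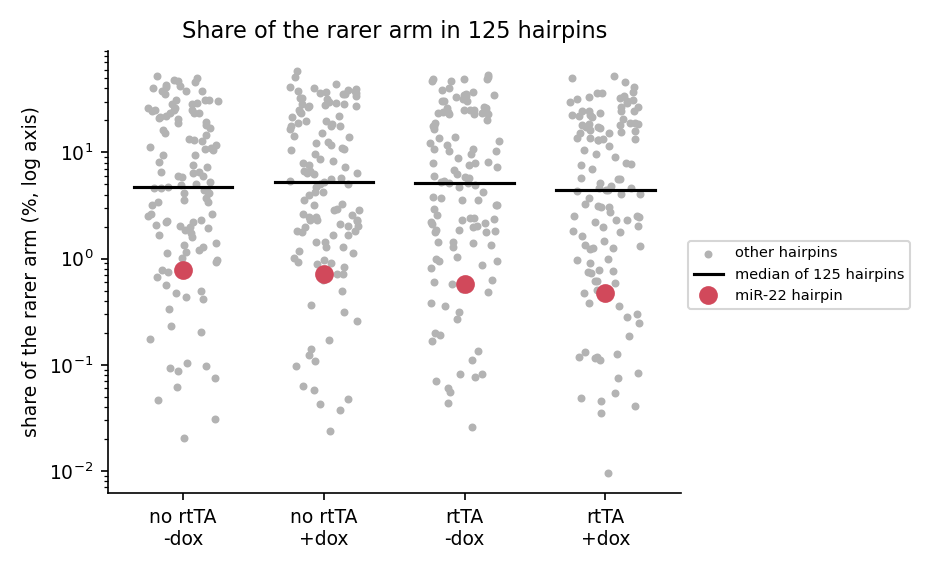
Share of the rarer arm (%, log axis) in 125 hairpins in the 4 libraries, with 1 grey point per hairpin, the median as a line and miR-22 in red; shares of 0 (2 to 5 hairpins per library) cannot be drawn on a log axis. The share in miR-22 goes from 0.778% to 0.470% and lies below the median in every library.

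Dox in rtTA cells is the comparison in which the shRNA is switched on, and it asks whether endogenous microRNAs differ when it is. The guide was 1.19 times higher with dox (log2 ratio 0.25, 0.24 to 0.25) and the passenger was at 0.96 times (log2 ratio -0.06, -0.11 to 0.0003). For a ratio to be counted as apart it had to be at least 2-fold with an interval that excludes equality. Neither arm was counted, against 37 of 372 microRNAs, 9.95%. The median log2 ratio over the 372 was -0.06, and 131 of them lay nearer to 0 than the guide.

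In terms of the pool, this modest ratio was the largest gain of any microRNA in this comparison. miR-22 went from 10.8% to 12.8% of the endogenous counts, a gain of 2.03 percentage points. miR-143 gained 0.808 points and let-7c, a member of the let-7 family that restrains proliferation, gained 0.572 points. The largest losses were those of miR-21 (-1.35 points), miR-29a (-1.19) and miR-29b (-0.772), the latter a pair that targets collagen transcripts. Gains in points favour abundant microRNAs, and by ratio let-7c (0.38) stood above miR-22.

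The odds of the passenger against the guide were 0.809 times as high with dox (log2 odds ratio -0.31, -0.36 to -0.25). That is below 2-fold, while 25 of 125 hairpins, 20%, were apart by the same rule. The median over hairpins was -0.09. In 44 of the 125 hairpins the more abundant arm was higher and the rarer arm lower, as in miR-22. In 27 it was the reverse, and in 53 both arms went the same way.

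The base composition of the mature sequences went along with the ratios of this comparison. Across the 372 microRNAs, which share their libraries and are not replicates, the Pearson correlation of the log2 ratio with the percentage of G was 0.72. The guide has 27.3% G and the passenger 22.7%. At these values the linear trend lay at -0.02 for the guide and -0.22 for the passenger. Both arms were thus above the trend, the guide by 0.27 and the passenger by 0.16. Among the 54 microRNAs within 3 points of the guide's G content the median ratio was 0.07, and among the 77 within 3 points of the passenger's it was -0.15. With this trend taken out of both arms, the log2 odds ratio of the passenger was -0.11. With a trend on GC content in its place the ratio of the guide was 0.42.

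**Figure D4:**
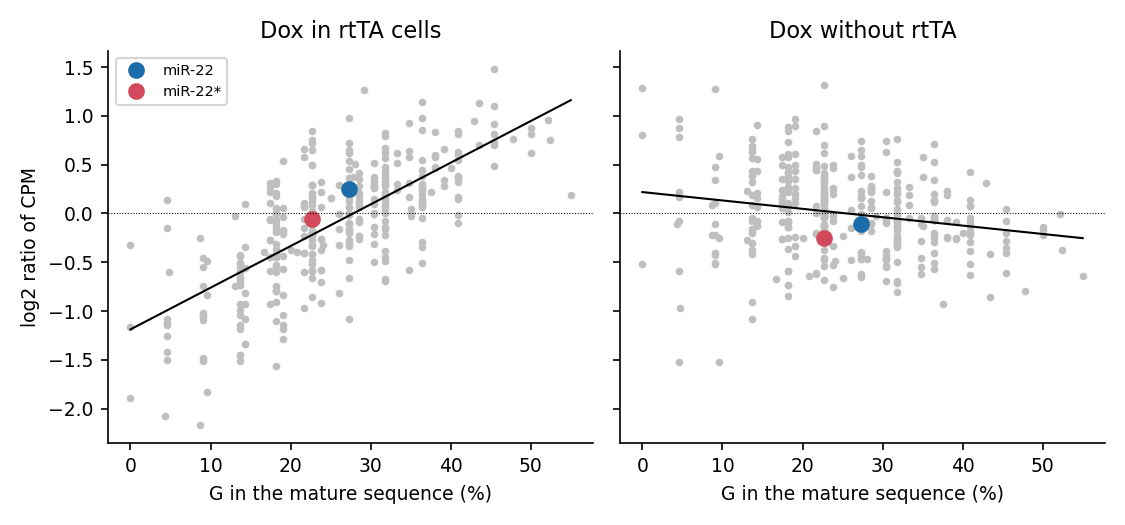
Log2 ratio of CPM against the percentage of G in the mature sequence for 372 microRNAs (grey), with a linear fit (line), for dox in rtTA cells (left) and dox without rtTA (right). On the left the ratios climb with G and both arms of miR-22 lie above the line, and on the right both lie below it.

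Dox without rtTA gives the drug with the shRNA uninduced, and here both arms were lower with dox. The guide was at 0.926 times (log2 ratio -0.11, -0.12 to -0.11) and the passenger at 0.843 times (-0.25, -0.30 to -0.19). Neither was apart by the 2-fold rule, and few microRNAs were: 6 of 372, 1.61%. The change of miR-22 was -0.777 percentage points, the largest loss after that of miR-21 (-1.70), while miR-143 gained 1.53. The log2 odds ratio of the passenger was -0.14 (-0.19 to -0.08), beside a median of 0.05 over hairpins, with 5.6% of hairpins apart. The correlation of the ratios with G was -0.20 in this comparison, and the trend lay at -0.01 for the guide and 0.02 for the passenger.

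The direction of the guide's dox ratio thus differed between the cells with and without rtTA. The difference of the log2 ratios, with rtTA minus without, was 0.36 (0.35 to 0.37, delta method) for miR-22 and 0.19 (0.11 to 0.27) for miR-22*. With the trend on G or on GC subtracted, the difference for miR-22* was 0.43 or 0.60, above that of the guide (0.37 or 0.57). Neither difference reached 2-fold, while 67 of 372 microRNAs, 18%, did. Of the 372, 107 were higher with dox in rtTA cells and lower with dox without rtTA, as miR-22 was, and 106 had the reverse pattern. For the log2 odds of the passenger the difference was -0.17 (-0.25 to -0.09), and it turned to 0.063 (-0.018 to 0.14) with the G trend and 0.029 (-0.051 to 0.11) with the GC trend subtracted.

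rtTA without dox compares both uninduced genotypes. The guide differed little, at 1.03 times with rtTA (log2 ratio 0.04, 0.03 to 0.04), while the passenger was at 0.763 times (-0.39, -0.45 to -0.34). The background was 7 of 372 microRNAs apart, 1.88%, with a median of -0.07. The odds of the passenger were 0.744 times as high in the rtTA library (log2 odds ratio -0.43, -0.48 to -0.37). Of the 125 hairpins, 84 had an odds ratio nearer to 0 and 22 had a lower one, and 4 hairpins, 3.2%, were apart. The ratios had a correlation of -0.0038 with G, and with the G trend taken out the log2 odds ratio was also -0.43.

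rtTA with dox sets the induced library against dox-treated cells that lack the transactivator. The libraries here are each shared with one of the dox comparisons, so the values are given side by side and are not independent of them. The guide was 1.31 times higher with rtTA (log2 ratio 0.39, 0.39 to 0.40), its largest ratio in the 4 comparisons, and the passenger was at 0.87 times (-0.20, -0.26 to -0.14). Apart by the 2-fold rule were 62 of 372 microRNAs, 16.7%, with neither arm among them. miR-22 gained 3.07 percentage points, from 9.74% to 12.8%, more than any other microRNA, and let-7c followed with 0.956. The log2 odds ratio of the passenger was -0.60 (-0.66 to -0.54), beside a median of -0.07, and 24.8% of hairpins were apart. The correlation with G was 0.69 here. With the trend on G subtracted, the log2 odds ratio was -0.36, the ratio of the guide 0.48 and that of the passenger 0.11, which is the other direction for the passenger. With a trend on GC content the ratio of the guide was 0.66.

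**Figure D5:**
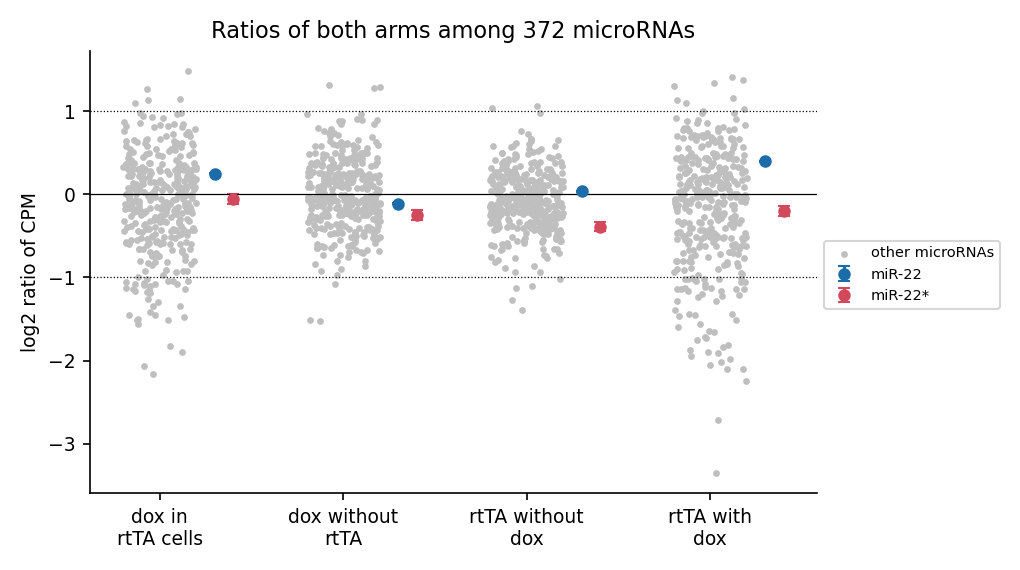
Log2 ratio of CPM in the 4 comparisons for 372 microRNAs (grey) and both arms of miR-22 (blue and red, with 95% counting intervals); dotted lines mark 2-fold. Both arms stay inside the 2-fold lines, and the guide lies above the passenger in each comparison, by the most in rtTA with dox (0.39 against -0.20).

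A joint fit over the 4 libraries, with additive terms for dox and rtTA, called neither arm. In edgeR's quasi-likelihood test with Benjamini-Hochberg adjustment the dox term was 0.09 on the log2 scale for the guide (adjusted p = 1.0) and -0.13 for the passenger (adjusted p = 1.0). The rtTA term was 0.27 for the guide (adjusted p = 0.69) and -0.24 for the passenger (adjusted p = 0.97). With 1 residual degree of freedom, the fit takes the dox effect to be equal in both genotypes, whereas the guide's dox ratios were 0.25 and -0.11. It called 0 of 372 microRNAs (0%) in either term, with 11 (dox) and 25 (rtTA) at an unadjusted p under 0.05. DESeq2 also called 0, with 11 and 15 at an unadjusted p under 0.05. The rtTA term of the guide was among the 25 of edgeR but not among the 15 of DESeq2.

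The summed level of the muscle markers followed the same order of libraries as the guide. So did that of the pluripotent markers, which were all below the floor, and the sums of the other lists did not. The muscle markers miR-1, miR-133a and miR-206 summed to 245 CPM (dox, no rtTA), 261 (neither), 378 (rtTA alone) and 589 (rtTA and dox), from the lowest to the highest level of miR-22. All 3 were past the floor, but the order of each marker alone is not given here. Both arms of miR-133a together had a mean of 6.55 CPM, so miR-133a adds little to the sum. The part of the muscle markers in the result was not tested. The neuronal list, with 3 of 3 markers past the floor, summed to 358, 472, 443 and 567 CPM in the order of no rtTA without and with dox and rtTA without and with dox. The blood list (4 of 5 past the floor) summed to between 51.5 and 81.9 CPM and was lowest in rtTA cells with dox, and the endothelial list (2 of 2) to between 120 and 175.

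The microRNAs with the pattern most like the guide were found by the largest absolute difference of log2 CPM over the 4 libraries, after each microRNA was centred on its own mean. Nearest to miR-22 was miR-140*, the abundant arm of a hairpin of cartilage and mesenchymal cells, which differed by at most 0.02. It had 657, 609, 674 and 817 CPM from the first library to the last. Next came miR-298 (at most 0.03), and then miR-501-5p, miR-30c-2* and miR-425* (each at most 0.06). Their mean levels ran from 19.2 to 849 CPM, far below that of miR-22. Counting error was not weighed in this likeness, and it is widest for the rarest of these microRNAs.

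The passenger had other neighbours. Nearest to miR-22* was miR-214, a mesenchymal microRNA transcribed within Dnm3os, which differed by at most 0.06 and had 5200, 4345, 3760 and 3905 CPM. let-7i* (0.07), miR-466k (0.10), miR-301b (0.11) and miR-151-5p (0.13) followed. Here too counting error was not weighed. Guide and passenger differed from each other by up to 0.41, and the passenger ranked 171 of 371 in likeness to its own guide.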

How the data were processed

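The authors deposited, per the file headers, 1 table per library with the name, sequence and raw read count of each microRNA and of the luciferase shRNA. The aligner, the mismatches allowed, the handling of multiply matching reads and the build were not given in the sources used here. Counts are whole numbers from 1 upward, and an unlisted microRNA was taken as 0, which allows up to 0.342 to 0.470 CPM (3 counts). Members and lists were chosen with earlier results of these data known. Both arms, the 10 most abundant microRNAs, the 5 nearest patterns per arm, microRNAs sharing a seed, hairpins of adjacent passenger share, cell type markers and the shRNA were named. CPM left out the shRNA, and the floor was 3.14 CPM (20 counts in the shallowest library), passed by 372 of 508 microRNAs. Ratios have exact conditional binomial 95% intervals and odds ratios exact conditional intervals (R 4.3.3). Where an arm had 0 counts, 0.5 was added to each count for its odds ratio, and 0.5 entered the delta-method intervals. The additive fit used edgeR 4.0.16 with TMM factors, and DESeq2 1.42.0 as an alternative. Arms were paired by name. Hairpins were folded with ViennaRNA 2.7.2. Ratios and fit were also run on simulated data, with the outcome not given here. The simulation for the ratios had no spread between cultures, and that for the fit had equal dox effects in both genotypes. Alternatives were other scalings, floors, likeness measures and trends on G or GC. The values of 1 planned microRNA list are not reported here.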

Additional observations from a re-analysis of the deposited data

Results flagged for a closer look

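The dox ratio of miR-22 pointed up in rtTA cells (log2 ratio 0.25) and down in cells without rtTA (-0.11), 1 pair of libraries each, a difference of 0.36. Of the 372 microRNAs past the floor, 129 had a difference nearer to 0. The same pair of directions was seen in 107 of the 372, miR-22 included, and the reverse in 106. With 1 library per group the difference of miR-22 was not tested against the spread between cultures. Its counting interval (0.35 to 0.37) covers reads only. The difference of miR-22 kept its sign under the 7 scaling and base composition alternatives, from 0.33 to 0.57. The scalings shift all log2 ratios of a dox comparison alike, by 0.0451 at most, so they could not have reversed it. Only the G and GC trends could have done so, and no alternative stands in for replicates.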

How the results depend on the processing

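The log2 ratios of miR-22 in the 4 comparisons kept their direction and stayed under 2-fold in the 7 alternatives each, from 0.21 to 0.42 (dox in rtTA cells), -0.15 to -0.09 (dox without rtTA), 0.04 to 0.11 (rtTA without dox) and 0.36 to 0.66 (rtTA with dox). The scalings among these shift all log2 ratios of a comparison alike, by 0.08 at most. The ratio of miR-22* turned positive for dox in rtTA cells (0.16 with the G trend and 0.24 with the GC trend subtracted) and for rtTA with dox (0.11 and 0.23). The cause was not tested. The log2 odds ratio of the passenger kept its sign in each comparison under its only alternative, the G trend subtracted. The difference of its dox values (-0.17) turned to 0.063 with the G trend and 0.029 with the GC trend subtracted. The difference of the dox ratios of miR-22* ran from 0.16 to 0.60. No term of the additive fit passed in any of its 3 alternatives each. The alternatives for these differences were chosen after seeing the data. Both measures of likeness gave the same 5 nearest microRNAs for each arm. No paired analysis was possible because each group is 1 library. The additive fit compares dox within genotype through its rtTA term. Leaving out a library would leave the additive fit no residual degree of freedom, so it was not run.

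The level of miR-22 in CPM, in the order no rtTA without and with dox and rtTA without and with dox, was 103694, 95389, 108108 and 132504 by TMM, and 101761, 95797, 109185 and 133120 by DESeq2 size factors. It was 106917, 99200, 109576 and 130371 with star names left out of the total, and 263223, 246133, 273419 and 329217 without the 10 most abundant. With the shRNA in the total it was 125077 in rtTA cells with dox. That of miR-22* was 2063, 1756, 1594 and 1554 without the 10 most abundant. By DESeq2 it was 798 without rtTA and dox, and in rtTA cells with dox 628 by DESeq2 and 625 by TMM. These changes follow from the other totals.

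The number of microRNAs apart was 8 (3 higher, 5 lower; G trend) and 20 (6 and 14; GC trend) in place of 37 (5 and 32) for dox in rtTA cells, and 21 (8 and 13; G trend) in place of 62 (9 and 53) for rtTA with dox, where the GC trend gave 14 and 29. They numbered 10 (floor of 5 counts) and 11 (no floor) in place of 6 for dox without rtTA. For rtTA without dox they numbered 14, 15 and 3 (GC trend) in place of 7. The split there was 3 higher and 4 lower by TMM, DESeq2, scaling without the 10 most abundant and the G trend, against 2 and 5. For dox without rtTA the G trend gave 3 and 5 and the GC trend 3 and 2, against 3 and 3. Each ratio of either arm rests on at least 4540 counts. The counting interval of miR-22* for dox in rtTA cells (-0.11 to 0.0003) still includes equality, so depth leaves that direction open.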
